A study of Drosophila melanogaster with 12 samples.

Results

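The genes described here make fatty acids from acetyl groups, desaturate them, and store or release them as droplet fat. They are FASN1, ACC, ATPCL, Desat1, Fad2, SREBP, Lsd-1, Lsd-2, bmm and mdy, chosen by name from the gene symbols of an Affymetrix Drosophila array. A probe set was taken where its only symbol was one of these 10, which gave 12 probe sets among 13966 for fly transcripts, with a pair each for ACC and mdy. In all, 10844 genes had a probe set of their own on the array. The arrays measured RNA of whole Drosophila melanogaster, with no sex or strain in the labels. Larvae were moved to food without yeast early in their last stage, and stayed on it as adults until 4 days after emergence. They were then given food with yeast again and collected at each of the next 12 hours, with 1 array per hour. All 12 arrays share this diet history, and arrays of flies kept off yeast were not analysed here. Hour thus runs together with age, clock time and order of collection, which cannot be told apart. No hour was repeated, so p-values rest on the scatter of the arrays around a fitted course, which may be technical.

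Flies build fat mainly in the fat body, an organ that combines roles of liver and adipose tissue. Citrate from mitochondria is split by ATP citrate lyase (ATPCL) into acetyl-CoA, acetyl-CoA carboxylase (ACC) turns that into malonyl-CoA, and fatty acid synthase (FASN1) joins these units into saturated fatty acids. SREBP is the transcription factor that drives such genes. Desaturases then add double bonds, diacylglycerol acyltransferase (mdy) completes triglyceride, perilipins (Lsd-1 and Lsd-2) coat the droplet, and the lipase brummer (bmm) breaks triglyceride down.

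Arrays differed in male tissue. Acp95EF, made in the male accessory gland, read between 269.5 and 552 on the arrays of hours 2, 3, 5, 9 and 10, and between 38.0 and 44.0 on the other 7. The 15 tested genes of a male gland and testis list had summed intensities of 3837 to 5003 on those 5 arrays and 1912 to 2085 on the others. Apart from Acp95EF, which defined the 5 arrays, 12 of 14 were higher on all 5 than on the other 7 in intensity before the floor was set. Among all tested probe sets 1.74% were, counted after it was set, so the measures differ. Of the 12, Ebp and Mst57Dc exceeded the floor on 5 arrays and dj on 3, all among those with Acp95EF. They were tested only through these arrays, so their separation adds no support. Of the 11 tested member probe sets 0 were higher on all 5 and 0 lower on all 5, near the shares of all tested probe sets (1.74% and 0.302%). RNA quality was read from actin control probe sets: the log2 excess of the 3' end over the 5' end was 1.13 at hour 1 and 0.69 at hour 12. The part of male tissue and of RNA quality in the results was not tested beyond the fits given. In whole-animal RNA, fewer cells of a type and less RNA per cell cannot be told apart.

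Over the 12 hours Fad2, ATPCL and mdy rose, Lsd-1 fell, and the trends of the other 6 genes did not pass the test. Intensities were set to a floor of 57.2, the 20th percentile of the table, and taken to log2. A straight line on hour was fitted with limma to the 11586 probe sets that exceeded the floor on 3 or more arrays. Changes are the log2 difference of the line between its ends, 11 hours apart, and were called at a Benjamini-Hochberg adjusted p under 0.05. All members but the dimmer mdy probe set were tested, and each of the 11 was above the floor on all 12 arrays. Of these 11 probe sets 3 were called higher and 1 lower (4 in all, where 13.4% of all tested probe sets passed, 8.44% higher and 4.97% lower). Their median fitted change was 0.08, beside 0.01 over all tested probe sets. When the 5 arrays with male transcripts were left out, 1 member was called, Fad2. With 1 hour left out at a time, Fad2 kept its call in all 12 fits. The call was lost in 11 of them for mdy, in 7 for ATPCL and in 6 for Lsd-1. With the actin difference as a covariate 0 members were called by limma, and 228 of all probe sets were. That difference itself declined over the hours, so this fit cannot separate it from hour. Its SEs were larger, and the changes moved as well. For ATPCL the change was 0.28 ± 0.19 with the covariate and 0.38 ± 0.11 without it.

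**Figure D1:**
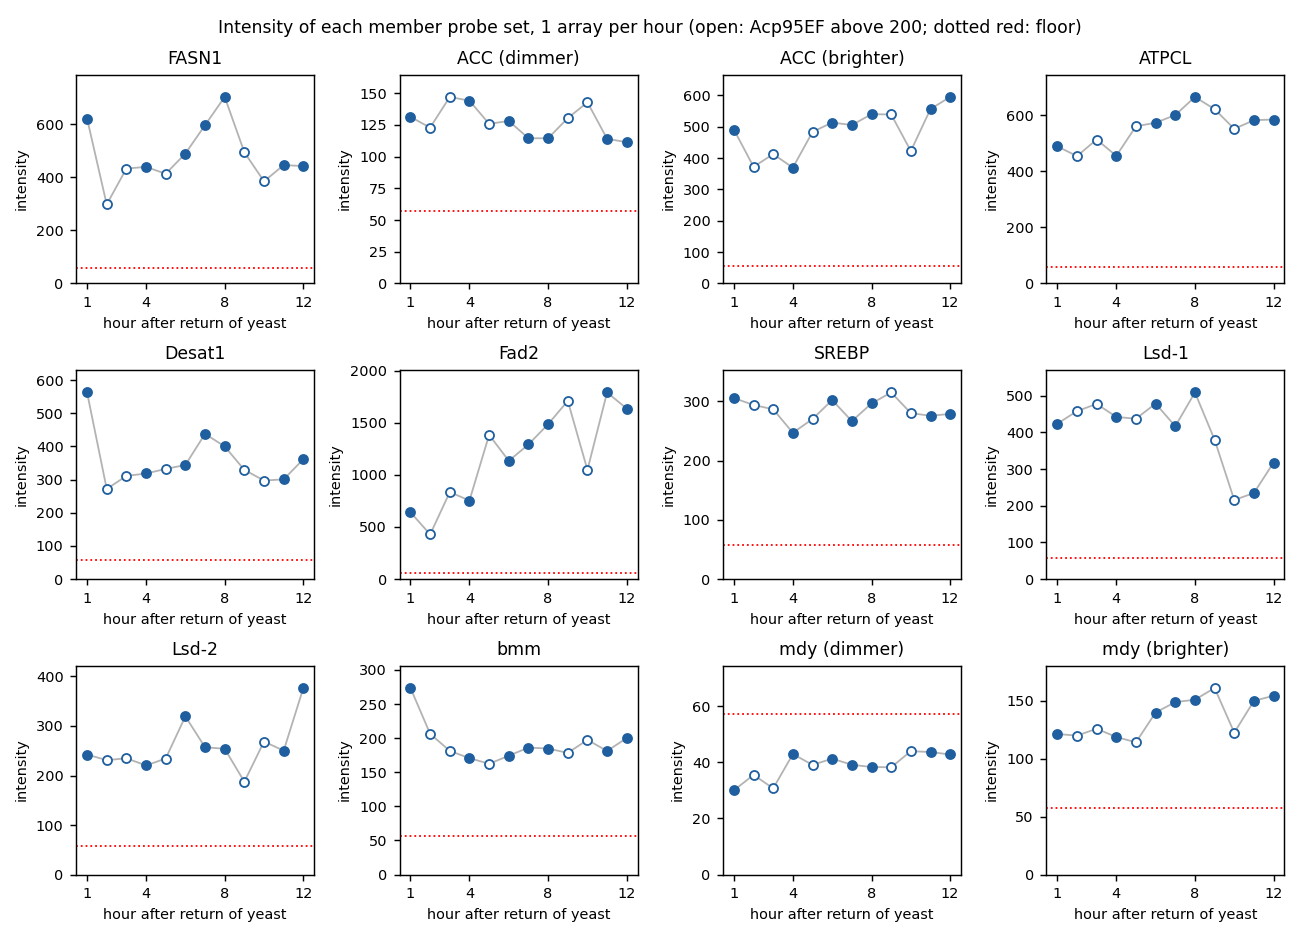
Intensity (linear axis from 0) of the 12 member probe sets against hour after the return of yeast. Each point is 1 array, open points are the 5 arrays with Acp95EF above 200, and the dotted line is the floor of 57.2. Fad2 climbed from 640 to 1635, Lsd-1 was low from hour 10, and the dimmer mdy probe set lay below the floor on every array.

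ATPCL, which supplies the acetyl units, rose, and FASN1, which joins them, had no trend past the test. The difference between these trends did not pass either (0.30, 95% CI -0.26 to 0.85, p = 0.26 by permutation of hours). ATPCL read 489, 454, 513 and 455 at hours 1 to 4, then 560.2, 573, 600.2 and 665 at hours 5 to 8, and 621, 551, 582 and 584 at hours 9 to 12. Every array from hour 5 on was above every array of hours 1 to 4. Hours 9 to 12 alone lay above hours 1 to 4 in 7.89% of all tested probe sets, and the share for hours 5 to 12 was not counted. Its fitted change was 0.38 ± 0.11 (SE, n = 12 arrays; limma adjusted p = 0.0395). The mean of hours 5 to 8 was higher than that of hours 1 to 4 by 0.33 ± 0.07 (limma adjusted p = 0.0428), and the mean of hours 9 to 12 by 0.29 ± 0.07 (limma adjusted p = 0.02). Between the middle and late windows the difference was -0.03 ± 0.07 (limma adjusted p = 0.928). On these single arrays the higher level was reached by hour 5 and the last 8 arrays overlapped. The trend call of ATPCL was lost in 7 of the 12 fits that left out 1 hour, those without hours 1, 2, 3, 4, 9, 11 or 12. Its change stayed between 0.32 and 0.44 in all 12. The call for the late window was lost without hours 2, 11 or 12 and without the 5 arrays with male transcripts (0.31, limma adjusted p = 0.0834). That for the middle window was lost in 8 of the 12 fits that left out 1 hour (limma adjusted p up to 0.158). It was also lost with quantile normalization and with no filter.

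FASN1 had its lowest array at hour 2 and its highest at hour 8. Its intensity was 621 at hour 1, 298 at hour 2, and 433, 439 and 413 at hours 3 to 5. It then read 489, 596 and 703 at hours 6 to 8, and 494, 385, 446 and 442 at hours 9 to 12. The highest array was 2.36 times the lowest, yet a line through all 12 had a change of 0.08 ± 0.28 (limma adjusted p = 0.913). The sign of that value was not stable: it was 0.35 without hour 1, -0.20 without hour 2, -0.29 without the 5 arrays with male transcripts and 0.43 within them, none past the test. Scatter around that line was 0.35 log2 (residual SD), larger than for every other tested member probe set but Fad2 (0.37). Hour 8 is among the arrays without male transcripts and hour 2 among those with them. Among the 7 arrays without them, FASN1 read 621 at hour 1, 439 at hour 4, 489, 596 and 703 at hours 6 to 8, and 446 and 442 at hours 11 and 12. A curved term over hours did not pass for FASN1 (-0.24 ± 0.30, limma adjusted p = 0.999).

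The ACC probe sets had fitted trends of opposite sign, neither past the test. The brighter one read 491 at hour 1, between 369.6 and 413 at hours 2 to 4, and between 484 and 595 in later hours except for 423 at hour 10. Its fitted change of 0.45 ± 0.15 did not pass (limma adjusted p = 0.0675), though it did with quantile normalization (0.0455), without hour 1 (0.0285) and without hour 10 (0.0129). The dimmer one was between 111 and 147 on all arrays, with its lowest value at hour 12 where the other had its highest, and its change was -0.20 ± 0.12 (limma adjusted p = 0.327). No trend is therefore given for ACC as a gene. The mean of both probe sets had a change of 0.13 ± 0.08 (limma adjusted p = 0.359).

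**Figure D2:**
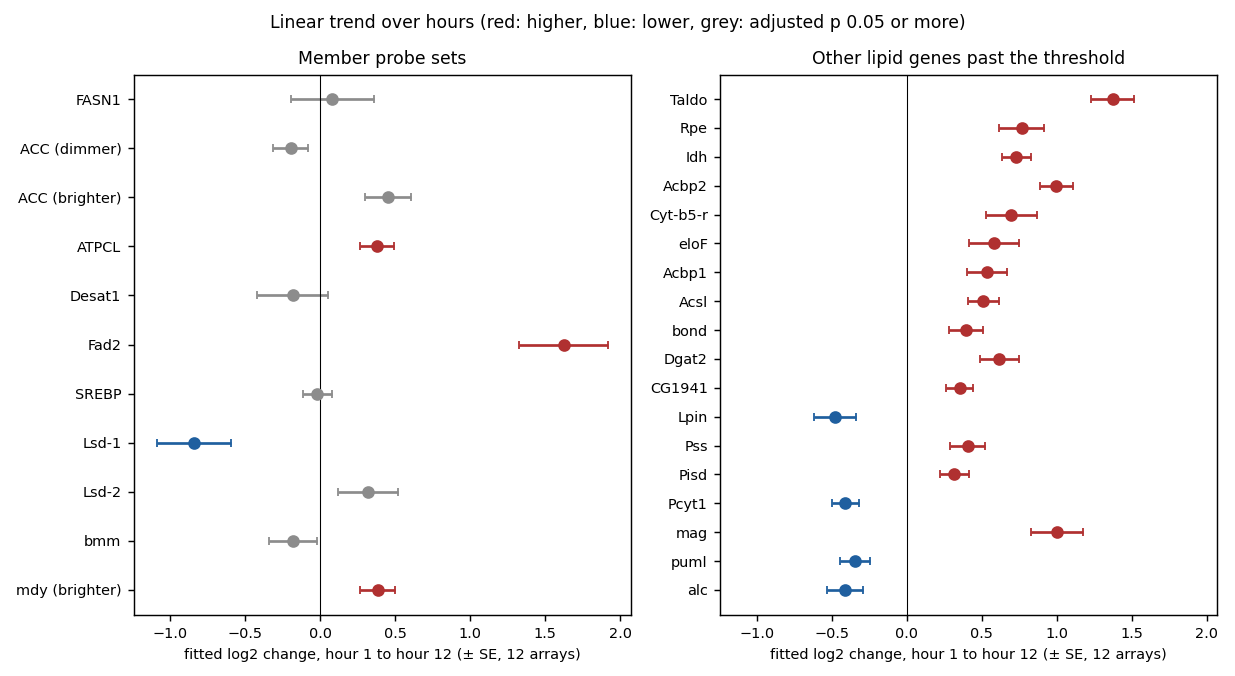
Fitted log2 change from hour 1 to hour 12 with its SE (n = 12 arrays) for the 11 tested member probe sets (left) and for the other listed lipid genes past the threshold (right). Fad2 stands at 1.62 and Lsd-1 at -0.84, and 14 of the 18 other lipid genes shown lie above 0.

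Of the desaturase genes Fad2 rose, and Desat1 had no trend past the test. Desat1 makes the first double bond in fatty acids of general metabolism and in precursors of cuticular pheromones. Its top intensity was 563 at hour 1 and its bottom one 272 at hour 2. Between hours 3 and 12 it read 311, 318, 332, 344, 438, 399.9, 329, 297, 301 and 361. Its hour 7 and 8 values were the highest after hour 1. Its trend was -0.18 ± 0.24 (limma adjusted p = 0.727). Without hour 1 it was 0.17 (limma adjusted p = 0.655), and without the 5 arrays with male transcripts -0.52 (limma adjusted p = 0.281).

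Fad2 encodes a desaturase known from the female oenocytes, the cells that make cuticular hydrocarbons, where it adds the second double bond of the female pheromone dienes. Its intensity was 640, 427, 833 and 753 at hours 1 to 4, then 1383, 1134, 1290.5 and 1485 at hours 5 to 8, and 1709, 1047, 1790 and 1635 at hours 9 to 12. All arrays from hour 5 on exceeded all earlier ones, a split whose share over all tested probe sets was not counted. The fitted change was 1.62 ± 0.30 (limma adjusted p = 0.00308). By the middle window it was already higher by 1.03 ± 0.20 (limma adjusted p = 0.0416) and in the late window by 1.23 ± 0.20 (limma adjusted p = 0.00531), both against hours 1 to 4. The middle window call was lost with quantile normalization, with no filter and in 6 fits that left out 1 hour, while the late window call held in each of the alternatives run for it. The difference of late from middle hours was 0.20 ± 0.20 (limma adjusted p = 0.848).

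Fad2 was the member with the firmest call. It passed in all 12 fits that left out 1 hour, at changes between 1.32 and 1.81 and adjusted p of at most 0.0125. The arrays with male transcripts held both low and high values, from 427 at hour 2 to 1709 at hour 9. Hour 10 was 1.63-fold lower than hour 9 and 1.71-fold lower than hour 11, steps of at least 1.5-fold that 1.86% and 1.92% of all tested probe sets took in the same directions. Fad2 also stepped up 1.95-fold from hour 2 to hour 3 (1.53% of all) and 1.84-fold from hour 4 to hour 5 (0.518% of all). Without those 5 arrays the change was 1.55 ± 0.19 (limma adjusted p = 0.0132). Over the 7 that remained, intensity increased from each array to the next up to hour 11, and how many of all probe sets did so was not counted. Within the 5 alone it was 1.68 ± 0.74 (limma adjusted p = 0.408, in a fit where 0 of all probe sets passed). With the actin difference as covariate the change was 1.94 ± 0.51 and the call was lost (limma adjusted p = 0.0743). There the change was no smaller, and the SE was larger than the 0.30 without the covariate.

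**Figure D3:**
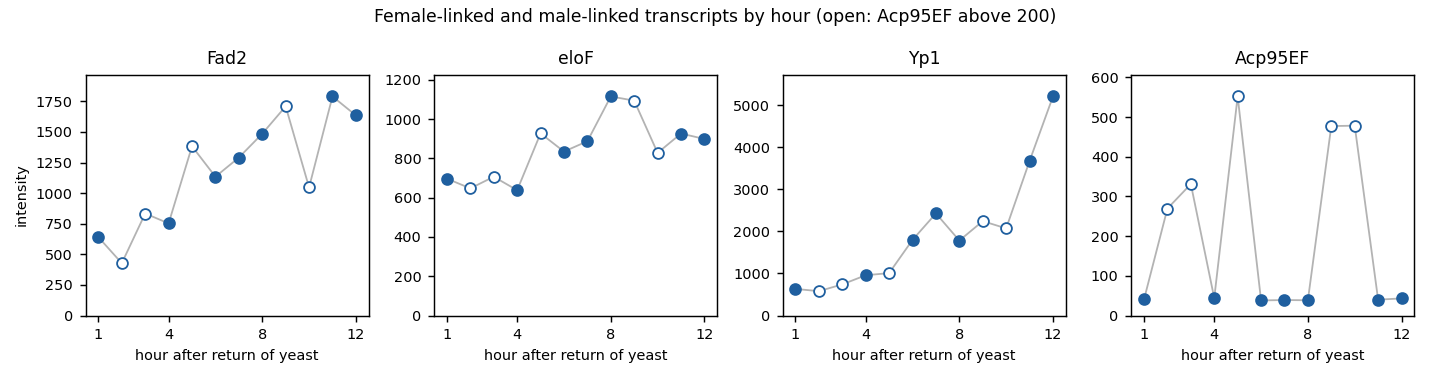
Intensity (linear axes from 0) of Fad2, the elongase eloF, the yolk protein gene Yp1 and the male gland gene Acp95EF against hour. Open points are the 5 arrays with Acp95EF above 200. Fad2 and Yp1 were higher in later hours, eloF reached 1116 at hour 8, and Acp95EF was at 44.0 or below on 7 arrays.

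A sharp step down after hour 1 was seen in FASN1 and Desat1. FASN1 was 2.09-fold and Desat1 2.07-fold lower at hour 2 than at hour 1, and Fad2 was 1.498-fold lower. Among all tested probe sets 1.96% were at least 1.5-fold lower at hour 2, and 2 of the 11 member probe sets were. Hour 2 also differs from hour 1 in male transcripts. At hour 4, without them, Desat1 read 318 against 563 at hour 1, and FASN1 439 against 621. At hours 7 and 8, also without them, Desat1 read 438 and 399.9, and FASN1 596 and 703. The part of male tissue in the step was not tested. The lipase gene bmm was also highest at hour 1, at 274, and read 206, 181, 171 and 162 at hours 2 to 5. In all, 15.3% of tested probe sets had their highest value at hour 1, and Desat1 and bmm did among the 11. The lowest value lay at hour 2 for ATPCL, FASN1, Desat1 and Fad2 and for 13.9% of all, and the highest at hour 8 for FASN1, ATPCL and Lsd-1 and for 7.07% of all. Desat1 stood at 1.71 times and bmm at 1.51 times the median of their later hours, where 2.34% of probe sets were at least 1.5 times. Each hour has 1 array, so these steps have no replicate check.

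The regulator SREBP stayed within a narrow range, from 247 at hour 4 to 315 at hour 9. Its highest array was 1.28 times its lowest, the smallest such ratio among the tested member probe sets. Its change was -0.02 ± 0.10 (limma adjusted p = 0.94), and no window contrast passed. SREBP is activated by cleavage of its protein, which an array does not measure.

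The triglyceride enzyme gene mdy rose. Its brighter probe set was between 114 and 126 at hours 1 to 5, between 139.9 and 161 at hours 6 to 9, and at 123, 150.0 and 154 at hours 10 to 12. After hour 5, only hour 10, an array with male transcripts, lay among the earlier values. The change was 0.38 ± 0.12 (limma adjusted p = 0.0433), and it lost its call in 11 of the 12 fits that left out 1 hour, all but the one without hour 10 (0.47, limma adjusted p = 0.00632). Its dimmer probe set read at most 43.9, below the floor on every array. The contrast of late and early windows did not pass for mdy, at 0.27 ± 0.10 (limma adjusted p = 0.115), and was 0.34 (0.0285) without the arrays with male transcripts.

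Of the perilipin genes Lsd-1 fell, and Lsd-2 had no trend past the test. Lsd-1 encodes the perilipin that in flies is tied to hormone-stimulated lipolysis. It lay between 417 and 509 at hours 1 to 8, then read 379.8, 215, 235 and 318 at hours 9 to 12. All late arrays were below all early ones, as in 4.28% of tested probe sets. Its trend was -0.84 ± 0.25 (limma adjusted p = 0.038), and the mean of hours 9 to 12 was lower than that of hours 1 to 4 by 0.69 on the log2 scale, at -0.69 ± 0.15 (limma adjusted p = 0.0138). Between the early and middle windows the difference was 0.03 ± 0.15 (limma adjusted p = 0.941).

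The fall of Lsd-1 lay in the last 4 hours. The late window differed from the middle one by -0.72 ± 0.15, with an unadjusted p of 0.000286, the fifth smallest of 11586 probe sets. In that contrast 0 probe sets passed the limma adjustment and 771 had an unadjusted p under 0.05, so that Lsd-1 had a limma adjusted p of 0.547. Its step from hour 9 to hour 10 was 1.76-fold down, where 1.86% of all tested probe sets fell by at least 1.5-fold. The trend call was lost in 6 of the 12 fits that left out 1 hour (hours 2, 3, 4, 5, 11 or 12), at changes between -0.66 and -1.02 over all 12. It was also lost without the arrays with male transcripts (-0.70 ± 0.33, limma adjusted p = 0.229). In that fit the late window stands on hours 11 and 12, and the late contrast was -0.66 (limma adjusted p = 0.0546). Without hour 11 the late contrast missed the threshold too (-0.60, limma adjusted p = 0.0505).

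Lsd-2 encodes the perilipin that shields stored fat from lipases. Its intensity was between 220.3 and 242 at hours 1 to 5, 319 at hour 6, 257 and 254 at hours 7 and 8, and 187, 268, 250.2 and 377 at hours 9 to 12. The last step was 1.51-fold up, where 0.250% of all tested probe sets rose by at least 1.5-fold. The lowest and highest arrays both lay in the last 4 hours. Its trend did not pass, at 0.32 ± 0.20 (limma adjusted p = 0.375). It was 0.07 without hour 12 (limma adjusted p = 0.908) and -0.03 within the 5 arrays with male transcripts (limma adjusted p = 0.975).

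The lipase gene bmm, whose product is the fly counterpart of adipose triglyceride lipase, had its low at hour 5 and read 174, 186, 185, 178, 197, 181 and 200.2 at hours 6 to 12. Its linear trend was -0.18 ± 0.16 (limma adjusted p = 0.555), and without hour 1 it was 0.08 (limma adjusted p = 0.759). The curved term had an unadjusted p of 0.00206 but did not pass, at 0.47 ± 0.12 (limma adjusted p = 0.336), and over all probe sets 4 passed (0.0345%), with 641 at an unadjusted p under 0.05.

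**Figure D4:**
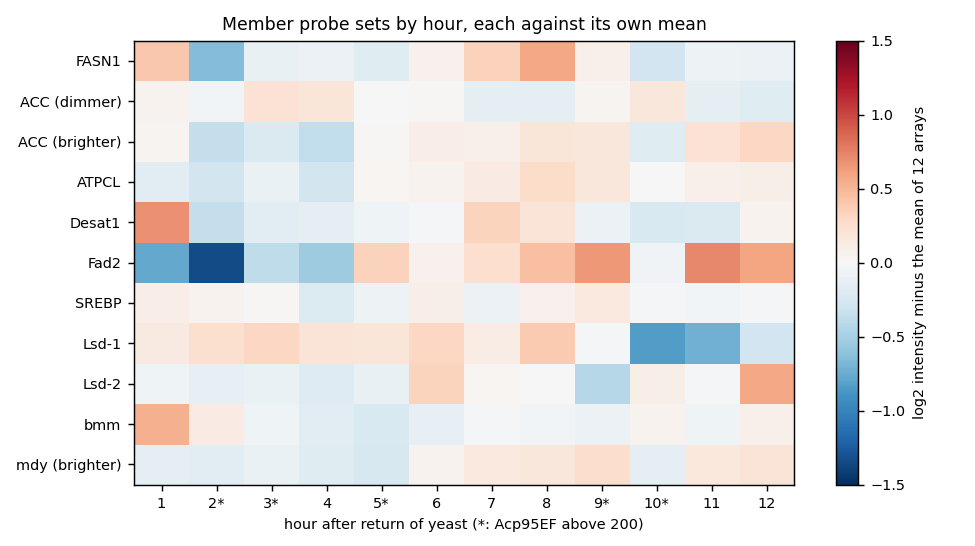
Log2 intensity of each tested member probe set minus its own mean over the 12 arrays, by hour, with stars at the 5 arrays with Acp95EF above 200. Fad2 is below its mean to hour 4 and above it from hour 5 apart from hour 10, Desat1 and bmm are highest at hour 1, and Lsd-1 is lowest at hour 10.

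By window, 3 members passed between late and early hours, ATPCL and Fad2 higher and Lsd-1 lower, beside 8.43% of all tested probe sets (5.42% higher and 3.01% lower). For these same genes the arrays of the windows did not overlap. Such separation held for 7.89% of all tested probe sets upward and 4.28% downward. Between middle and early hours ATPCL and Fad2 passed, both higher, beside 1.89% (1.81% higher). None of the 11 member probe sets passed between late and middle hours or in the curved term by limma. At an unadjusted p under 0.05 there was 1 of 11 in each, Lsd-1 and bmm, beside 6.65% and 5.53% of all tested probe sets.

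**Figure D5:**
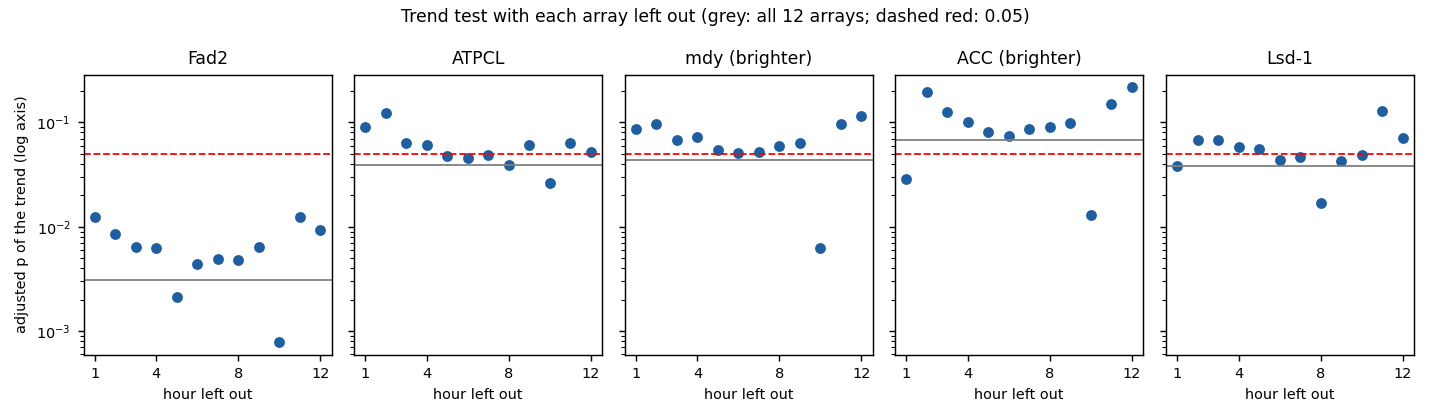
Limma adjusted p (log axis) of the trend when each hour is left out in turn, for Fad2, ATPCL, the brighter mdy and ACC probe sets and Lsd-1. The grey line is the value with all 12 arrays and the dashed line the threshold of 0.05. All Fad2 points lie below the threshold, and leaving out hour 10 gives the smallest value for Fad2, ATPCL, mdy and ACC.

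Among other lipid genes, 71 on 6 lists were tested through the brightest probe set of each. Of these 14 rose and 4 fell (25.4%), with a median change of 0.07, where 13.4% of all tested probe sets passed (8.44% higher and 4.97% lower). No list was tested as a set. The total of 18 was 10 without hour 2, without hour 11 or without the 5 arrays with male transcripts, and 2 with the actin difference as covariate.

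Of 7 tested genes that supply precursors and reducing power, 3 rose and 0 fell, with a median change of 0.42. The share called was 42.9%, beside 13.4% of all tested probe sets. Transaldolase (Taldo) and Rpe, enzymes of the pentose phosphate pathway, rose by 1.37 ± 0.14 (limma adjusted p = 0.000132) and 0.77 ± 0.15 (limma adjusted p = 0.0044). Taldo intensity was lowest at hour 2 (351) and highest at hour 11 (904). Idh, the NADP-dependent isocitrate dehydrogenase, rose by 0.73 ± 0.10 (limma adjusted p = 0.000457). These 3 were called in all 12 fits that left out 1 hour. The malic enzyme gene Men-b did not pass on either probe set (0.42, limma adjusted p = 0.153, and 0.29, limma adjusted p = 0.0545).

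Of 15 tested elongases, further desaturases and acyl-CoA handling genes 6 rose and 0 fell, with a median of 0.32 (40% called, beside 13.4% of all tested probe sets). Acbp2, an acyl-CoA-binding protein, rose by 1.00 ± 0.11 (limma adjusted p = 0.000155) from 549 at hour 1 to 1078 at hour 11. Acbp1 rose by 0.53 ± 0.13, the acyl-CoA synthetase Acsl by 0.51 ± 0.10, and Cyt-b5-r, a cytochrome b5-related gene, by 0.70 ± 0.17. The elongases bond (0.40 ± 0.11), above the floor on 7 arrays, and eloF (0.58 ± 0.17, limma adjusted p = 0.0335) rose too. Known like Fad2 from female hydrocarbon synthesis, eloF read between 638 and 707 at hours 1 to 4 and between 828 and 1116 later. Without the arrays with male transcripts eloF changed by 0.54 and was not called (limma adjusted p = 0.164). The count of 6 dropped to 3 when hour 1 was left out and to 2 for hour 2 or hour 11. FASN2, a second fatty acid synthase, had a change of -0.23 ± 0.17 (limma adjusted p = 0.481). Beside Fad2, a list of 7 tested oenocyte and hydrocarbon genes went both ways, with a median of 0.10 and 42.9% called. On it eloF and bond rose, Cyp4g1 fell and 4 did not pass. Cyp4g1, the enzyme of the last hydrocarbon step, changed by -0.29 ± 0.09 (limma adjusted p = 0.0436), from 8923 at hour 1 to 6779 at hour 12. FarO (0.01), spidey (0.17) and Desat2 (0.10) were the others besides FASN2.

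In glycerolipid synthesis 2 of 16 tested genes rose and 1 fell (18.8%, beside 13.4% of all tested probe sets), with a median of 0.12. Dgat2 and CG1941, both of the other acyltransferase family that completes triglyceride, rose by 0.62 ± 0.13 (limma adjusted p = 0.00656) and 0.35 ± 0.09 (limma adjusted p = 0.018). Dgat2 had low intensities, from 70.9 at hour 2 to 124 at hour 12. Lpin, the phosphatidate phosphatase one step earlier, changed by -0.48 ± 0.14 (limma adjusted p = 0.0394), from 288 at hour 1 to 163 at hour 12. Without hour 1 its change was -0.31 and not called (limma adjusted p = 0.194). The count of 3 became 1 without hours 2, 11 or 12 and 5 without hour 10.

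Phospholipid enzymes went both ways, with 2 of 11 tested genes higher, 1 lower and a median of -0.02. The share called was 27.3%, beside 13.4% of all tested probe sets. Pcyt1, which makes the activated choline of phosphatidylcholine, changed by -0.41 ± 0.09 (limma adjusted p = 0.00823), while Pss rose by 0.41 ± 0.12 (limma adjusted p = 0.0375) and Pisd by 0.32 ± 0.10 (limma adjusted p = 0.0413). Pss lost its call in 8 and Pisd in 10 of the 12 fits that left out 1 hour. Without the arrays with male transcripts limma called none of Pcyt1, Pss and Pisd (adjusted p = 0.101, 0.0909 and 0.0654). The count fell from 3 to 1 when hours 1, 3, 4, 8, 9 or 12 were left out. Of 7 lipolysis genes 1 rose and 1 fell (28.6%, beside 13.4% of all tested probe sets), with a median of -0.02. The one that rose, mag, by 1.00 ± 0.17 (limma adjusted p = 0.00231), encodes a lipase secreted into the gut. The other, puml, the fly counterpart of an activator of adipose triglyceride lipase, changed by -0.34 ± 0.10 (limma adjusted p = 0.0368), and by -0.24 without hour 1 (limma adjusted p = 0.178). Only mag was called without hours 1, 2, 3, 9 or 11. The hormone gene Akh (-0.09 ± 0.10) and its receptor AkhR (-0.07 ± 0.23) did not pass.

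Of 15 regulators of lipid genes 0 rose and 1 fell (6.67%, beside 13.4% of all tested probe sets), with a median of -0.10. The 1 that fell was alc, the beta subunit of AMP-activated kinase (-0.41 ± 0.12, limma adjusted p = 0.0347). It was not called without hours 1, 2, 10 or 12. Its change without hour 1 was -0.23, and 3 of these fits had 0 called, those without hour 1, 2 or 12. A second probe set of SNF4Agamma, the gamma subunit, changed by -0.56 (limma adjusted p = 0.0119). The one that stood for the gene, only slightly brighter on average, changed by -0.12 (limma adjusted p = 0.599). At hour 1 the second read 310.5 and the one used 231.6, so the count of 1 called regulator rests on a near tie. The transcription factor genes sug (-0.17 ± 0.19) and Hnf4 (0.19 ± 0.12) and the SREBP escort SCAP (-0.07 ± 0.16) did not pass. SCAP read 157 at hour 1 and 104 at hour 2.

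Likeness of course was described by Pearson r over the 12 arrays, against 9245 probe sets of other named genes above the floor on all arrays. With so many compared, high values arise easily and carry no test, and the points share their arrays, with male tissue on 5 of them. FASN1 was most like Hmgs, the synthase gene of the mevalonate pathway (r = 0.94), then CG1635 (0.92). Desat1 was most like BicD (0.94) and Acyp2 (0.94). ATPCL was most like l(2)k14505 and then eloF (both 0.96), and Fad2 most like ReepB and Send1 (both 0.97). The brighter ACC probe set was nearest to Galk and Phyhd1 (both 0.96), and mdy to GPHR (0.95) and colt (0.94). For SREBP the nearest were CG9372 (0.93) and yellow-g (0.89), for Lsd-1 CG15870 (0.88) and uzip (0.83), for Lsd-2 Sxl (0.93) and CG1440 (0.92), and for bmm CG3764 and rad50 (both 0.94). Lsd-1 had the lowest of these first-ranked values.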

How the data were processed

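Per the labels, RNA was extracted from whole animals with Trizol, and the authors normalized the intensities of the Affymetrix arrays with dChip (an invariant set). No version or background model is stated in these sources. What was deposited is linear intensity per probe set, with array medians from 113.6 to 120.2. All columns belonged to the 12 arrays, and their number limits the precision. Of 14010 probe sets 44 were controls. Symbols came from the platform annotation (12443 fly probe sets with 1 symbol). No coordinates or sequences are given.

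Values were floored, log2-transformed and fitted with limma 3.58.1 in R 4.3.3, and 2380 dim fly probe sets were left out. Besides the line on hour, windows of 4 hours and a quadratic term were fitted. The fit was tested on simulated data. Members, lists and tests were chosen with earlier results of these data known. All members are named. Of each lipid list at most 6 called genes by smallest p are named, with sug, Hnf4, eloF, Dgat2, Lpin and FASN2 in any case; Hsl and FASN3 were not analysed here. For each member the 2 most alike genes are named. Others (Cyp4g1, FarO, spidey, Desat2, Men-b, Akh, AkhR, SNF4Agamma, SCAP) were chosen after their values were seen. The hour 1 comparison, the fit within the arrays with male transcripts, the actin covariate, and the alternatives for lipid lists were also added then.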

Additional observations from a re-analysis of the deposited data

How the results depend on the processing

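The number of member probe sets called in the linear trend, 4, was 5 with quantile normalization, 3 with another variance model, and 4 with scaling to equal medians, a floor at the 10th or 40th percentile, a stricter filter (all 12 arrays), or probe sets averaged per gene. It was 1 with no filter, 1 without the 5 arrays with male transcripts, 2 with the male list mean as covariate, 2 with log2 of hour, 0 within the 5 arrays and 0 with the actin covariate. Leaving out 1 hour gave 1 to 5. In each of the fits that called 1, it was Fad2. For late against early windows, 3 members were called, and 1 to 5 with 1 hour left out. For middle against early windows 2 were called, 0 with quantile normalization or no filter, 1 with the other variance model or without the arrays with male transcripts, and 0 to 2 with 1 hour left out. The 18 other lipid genes became 11 with no filter, 10 without the arrays with male transcripts, 0 within them, 2 with the actin covariate, and 10 to 19 with 1 hour left out. No called change took the opposite sign in any alternative run. Over all probe sets, 1554 trend calls became 848 without the arrays with male transcripts, 0 within them, 228 with the actin covariate, and 943 to 2002 with 1 hour left out. With no filter they were 1213, with the male list mean as covariate 1561 and with log2 of hour 1571. In those last 2 fits the member calls thus fell while the total did not. The 977 late calls became 609 with no filter and 406 to 1487 with 1 hour left out. The 219 middle calls became 81 with quantile normalization, 0 with no filter, 361 without the arrays with male transcripts and 0 to 490 with 1 hour left out. The 0 calls between late and middle windows became 8 with the male covariate and 0 to 3 with 1 hour left out. The 4 curved calls became 8 with quantile normalization, 9 with the floor at the 40th percentile, 1 with no filter, 0 without the arrays with male transcripts, and 0 to 24 with 1 hour left out. The causes were not tested. No paired analysis was possible because there is 1 array per hour and no second group. A probe set at the floor has no order, so the dimmer mdy one gives none.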
